A study of Mus musculus with 2 samples.

Results

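The genes described here encode protein tyrosine phosphatases and dual-specificity phosphatases. They were taken by gene name: every array spot annotated to a gene called Ptpn or Dusp with a number, or Ptpr with a letter, counted as a member. This gave 61 genes, of 27601 gene names on the array, covered by 123 probes in 132 spots. By name, 17 were non-receptor enzymes (Ptpn), 21 were receptor-type enzymes (Ptpr) and 23 were dual-specificity enzymes (Dusp). Of the 61 genes, 25 could be measured and 36 could not.

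The RNA was that of naive, CD44low and CD25low CD8+ T cells sorted from Bcl11bF/F/dLck-iCre mice and from wild type mice, all of C57BL/6 background. In the former, floxed alleles of Bcl11b, a zinc-finger factor of T cells, are removed by an iCre under the distal Lck promoter, which acts late in thymocyte development. Whether the wild type mice carried Cre, the age of the animals and the number pooled per sample are not given by the labels, which state a sort purity above 90%. Each of 2 arrays paired a knockout sample, labelled with Cy5, with a wild type sample, labelled with Cy3, the dyes were never swapped, and so a dye effect on a gene and an effect of the genotype cannot be told apart. The labels name the arrays biological replicates without naming separate mice. The p-values below therefore rest only on the spread between these samples, pooled over all genes and not taken gene by gene.

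Phosphatases of this superfamily share a catalytic cysteine in a short signature loop and remove phosphate from tyrosine or, in the dual-specificity branch, also from serine and threonine. In T cells the transmembrane phosphatase CD45 (Ptprc) keeps Src-family kinases ready to signal, whereas cytosolic enzymes such as PEP (Ptpn22), SHP-1 (Ptpn6) and TC-PTP (Ptpn2) shut antigen receptor and cytokine signals down. Several dual-specificity enzymes are inactivators of the MAP kinases ERK, JNK and p38, and some of their genes are themselves switched on by those kinases.

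The promoters of the MAP kinase phosphatase genes that kept their direction on both arrays with a size of at least 0.4 are shown because the values of these genes, known when they were picked, are described at most length below. RefSeq sequences of GRCm38.p6 were matched for 49 of the 61 genes. Of the 4 genes that met this condition, Dusp1, Dusp6, Dusp10 and Dusp4, the first 3 had a sequence. Each runs from 250 bases before to 50 bases after the annotated start. Capitals mark the cyclic AMP response element core TGACG, the E-box CACGTG and the GC box GGGCGG on either strand, overlapping matches included.
Dusp1: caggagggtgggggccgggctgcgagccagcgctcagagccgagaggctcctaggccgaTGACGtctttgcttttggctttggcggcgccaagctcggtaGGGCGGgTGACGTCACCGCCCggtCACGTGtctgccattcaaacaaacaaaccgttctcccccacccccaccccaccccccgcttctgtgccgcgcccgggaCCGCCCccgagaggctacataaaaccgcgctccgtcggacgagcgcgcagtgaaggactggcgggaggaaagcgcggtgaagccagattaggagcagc
Dusp6: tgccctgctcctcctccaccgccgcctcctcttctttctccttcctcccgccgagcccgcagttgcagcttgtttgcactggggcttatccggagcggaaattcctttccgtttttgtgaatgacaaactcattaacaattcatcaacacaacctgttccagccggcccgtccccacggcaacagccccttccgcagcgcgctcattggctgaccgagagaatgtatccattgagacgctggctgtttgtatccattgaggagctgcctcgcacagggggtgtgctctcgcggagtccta
Dusp10: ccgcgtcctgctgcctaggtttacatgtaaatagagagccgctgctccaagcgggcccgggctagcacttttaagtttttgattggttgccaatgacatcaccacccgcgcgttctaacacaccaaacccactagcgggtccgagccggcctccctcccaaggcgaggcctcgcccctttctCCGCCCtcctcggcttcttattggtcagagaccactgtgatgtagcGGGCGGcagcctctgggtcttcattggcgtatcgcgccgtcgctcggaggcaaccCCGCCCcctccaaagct

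The Dusp1 window is chr17:26508423-26508722 on the minus strand, that of Dusp6 chr10:99262981-99263280 on the plus strand and that of Dusp10 chr1:184034131-184034430 on the plus strand. In Dusp1 the full palindromic response element TGACGTCA, which contains the core on both strands, begins at position -143 relative to the start and CACGTG at position -126. Of 32851 RefSeq promoter windows of this length, 1.79% held TGACGTCA, 20.8% held TGACG, 7.15% held CACGTG and 35.7% held GGGCGG. Dusp1 and Dusp10 each had 3 matches to the GC box, and in Dusp6 none of these letters were found. The GC content was 67% in Dusp1, 57.3% in Dusp6 and 61% in Dusp10, against a median of 52.7% over all windows.

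The arrays differed in spread. The log2 ratios of knockout over wild type had a standard deviation across 9273 measured genes of 1.01 on array 1 and 0.41 on array 2. Well above background were 16309 of 41174 gene probes in knockout RNA on array 1, and 10125 to 12645 in the other 3 channels. Bcl11b itself was at -1.45 and -1.73 on the arrays (adjusted p = 0.075, limma). Because array 1 was so much wider, a mean ratio over both arrays leans on array 1, and both values are therefore printed for each gene. One standard error, 0.50 on the log2 scale, applied to all genes in the limma fit, so the 95% interval of every mean ratio below reaches 0.97 to either side, and no mean smaller than 1.68 in size passed.

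No phosphatase passed the test: 0 of 25 measured genes had an adjusted p under 0.05 (limma, Benjamini-Hochberg over all genes), where 1.49% of all measured genes did. At an unadjusted p under 0.05, 1 phosphatase (Dusp10) was reached, against 9.75% of all measured genes. The mean log2 ratios of the 25 ran from -0.99 (Dusp10) to 0.94 (Dusp1). None was over 2-fold higher on both arrays, as 1.12% of all measured genes were, and none was over 2-fold lower on both, as 0.226% were. The same sign on both arrays was seen for 15 of the 25 genes, near the 61.8% of all measured genes. Of these, 10 lay above 0 (30.9% of all measured genes did) and 5 below 0 (30.8%). A further 7 were above 0 on array 1 and below 0 on array 2 (21.0%), and 3 the reverse (17.3%).

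**Figure D1:**
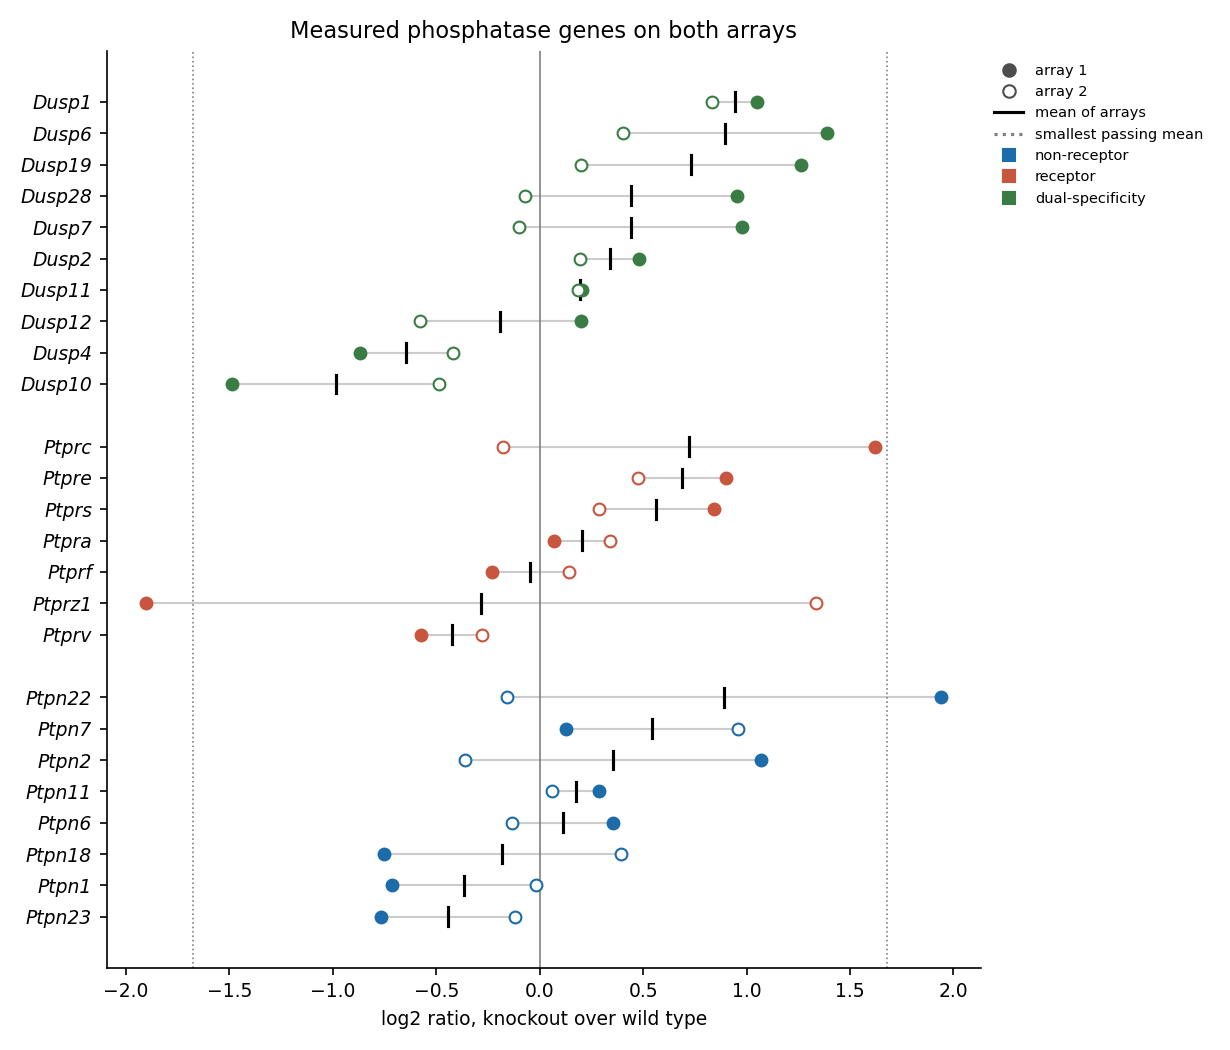
Log2 ratio of knockout over wild type for the 25 measured phosphatase genes, with array 1 as filled and array 2 as open circles, the mean of the arrays as a black bar and the smallest mean that passed the limma test (1.68 in size) as dotted lines. Every mean lies between -0.99 and 0.94, inside the dotted lines, and the widest separation of the arrays is that of Ptprz1.

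**Figure D2:**
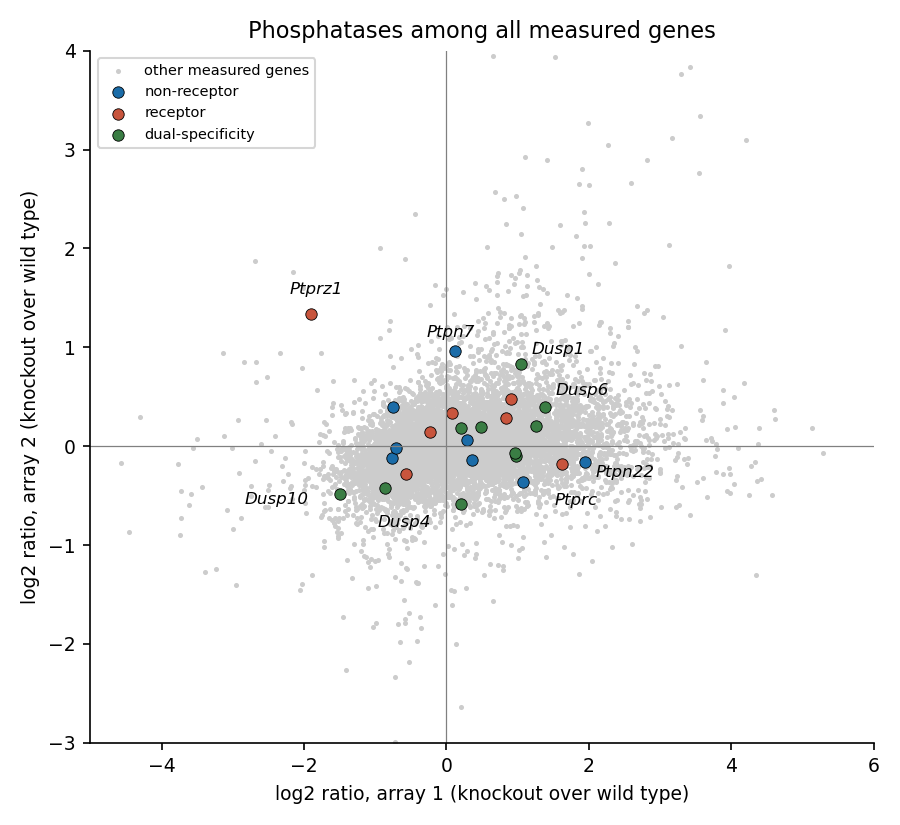
Log2 ratio on array 1 (horizontal) against array 2 (vertical) for all measured genes in grey and the 25 phosphatases in colour by class; 4 genes lie outside the axes. Array 1 is the wider axis, with 8 phosphatases past 2-fold there, while Ptprz1 alone is past 2-fold on array 2.

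The 3 classes were compared by their medians. The dual-specificity enzymes (10 measured) had medians of 0.72 (array 1) and 0.06 (array 2) for the log2 ratio, the non-receptor enzymes (8 measured) of 0.21 and -0.07, and the receptor enzymes (7 measured) of 0.07 and 0.29. Over all measured genes the medians were 0.05 and -0.01. The order of the classes was therefore not the same on the arrays: the dual-specificity enzymes stood highest on array 1 and the receptor enzymes on array 2. The medians of the gene means were 0.39, 0.14 and 0.21 in the order given, against 0.04 for all measured genes, and they differed between classes by less than the array medians of the dual-specificity class differed from each other. Over 2-fold changes on array 1 were found for 8 of the 25 genes, close to the 27.0% of all measured genes, and on array 2 for 1, against 2.84%.

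Of 6 measured MAP kinase phosphatases, 5 had the same sign on both arrays, where 61.8% of all measured genes did, and the group was picked with its values known. Dusp1, Dusp6 and Dusp2 were above 0 on both arrays, Dusp10 and Dusp4 were below 0 on both, and Dusp7 changed sign. None passed the test, so these are values and not calls.

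Dusp1, an immediate early gene whose product acts on p38, JNK and ERK in the nucleus, had normalised log2 signals of 12.63 in the knockout and 11.58 in wild type on array 1, and of 13.15 and 12.32 on array 2. Both knockout signals lay above both wild type signals. For this and the like remarks on genes below, the share of all measured genes without overlap was not counted. They are descriptions only. The ratios were 1.05 and 0.83, with a mean of 0.94 ± 0.15 (SD, n = 2), a 1.92-fold higher signal, and an adjusted p of 0.539 (limma). The array's annotation puts the probe at chr17:26233451-26233508 of mm8, on the minus strand. No annotation of that build was used here, so the exons under the probes are not given.

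Dusp6, a cytoplasmic phosphatase selective for ERK that serves as its feedback inhibitor, had signals of 12.77 in the knockout and 11.38 in wild type on array 1, and of 13.10 and 12.70 on array 2. The genotypes did not overlap here either. The ratios of 1.39 and 0.40 gave a mean of 0.89 ± 0.70 (adjusted p = 0.593, limma), from a probe on mm8 chromosome 10 at 98697039 to 98697098, plus strand. The arrays agreed on the direction of Dusp6 and not on its size.

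Dusp10, which encodes MKP5, a phosphatase of JNK and p38, was the lowest member. Its signals were 12.16 in the knockout and 13.65 in wild type on array 1, and 11.23 and 11.71 on array 2. Within each array the knockout was the lower, while across arrays the knockout signal of array 1 exceeded the wild type signal of array 2. The mean ratio was -0.99 ± 0.71 (adjusted p = 0.496, limma), with -1.49 on array 1 and -0.48 on array 2. With median centring in place of loess, which raised the typical gene by 0.65, the mean was -0.15. The probe lies on mm8 chromosome 1 from 185775985 to 185776044, plus strand.

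Dusp4, encoding the nuclear phosphatase MKP2, was seen on both arrays in wild type only with its brighter probe. Its wild type signals were 10.06 and 9.77, and its knockout signals, 9.20 and 9.35, were not well above background. Averaged over the arrays, the bound was a signal at least 1.30-fold lower in the knockout. It was taken between the wild type mean and a knockout value per array. That value was the higher of the faintest knockout signal counted as above background and the probe's own signal. The bound rests on array 1 alone, because on array 2 that faintest signal, 9.87, lay above the wild type signal. The measured ratios were -0.87 and -0.42 (adjusted p = 0.811, limma). A second Dusp4 probe was well above background in the knockout channel of array 1 alone, with ratios of -0.12 and -0.59. The probes lie on mm8 chromosome 8 from 36287508 to 36287567 and from 36290269 to 36290328, plus strand.

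Dusp2, the ERK and p38 phosphatase PAC-1 of activated lymphocytes, had close signals of 15.54 and 15.06 on array 1 and of 15.52 and 15.32 on array 2, knockout first, and the genotypes did not overlap. Its mean ratio was 0.34 ± 0.20, with a 95% interval from -0.64 to 1.31. Dusp7, another cytoplasmic ERK phosphatase, was at 0.98 on array 1 and -0.10 on array 2. Among the members without a measured level were the MAP kinase phosphatase genes Dusp8 and Dusp16, not well above background in any channel, and Dusp9, whose brighter probe was above it in both genotypes on array 1 and in neither on array 2. No spot of the array carried the name Dusp5.

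**Figure D3:**
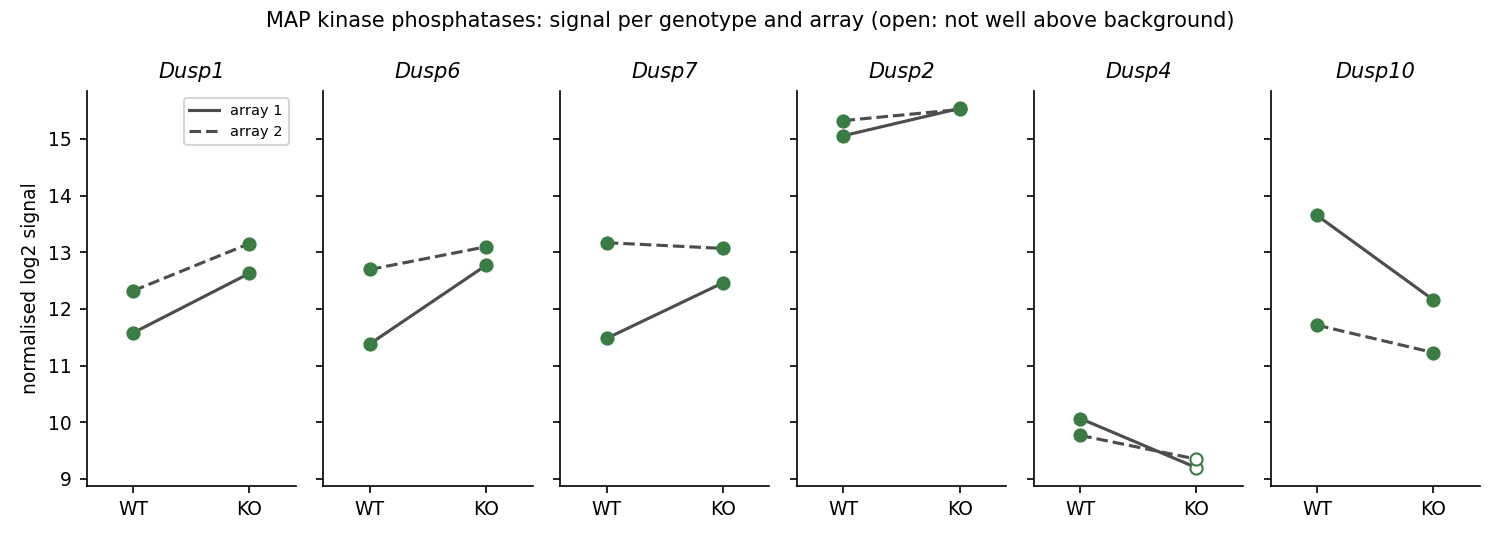
Normalised log2 signal of the 6 measured MAP kinase phosphatases in wild type (WT) and knockout (KO), with array 1 as solid and array 2 as dashed lines; open circles are not well above background. Both lines rise for Dusp1, Dusp6 and Dusp2 and both fall for Dusp4 and Dusp10, while those of Dusp7 differ in direction; levels are not comparable between genes.

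The other dual-specificity genes, the atypical enzymes that lack the MAP kinase docking domain, gave 4 measured members. Dusp19, whose product has been linked to the JNK pathway, was at 1.26 and 0.20 (mean 0.73 ± 0.75, adjusted p = 0.733, limma), with wild type not well above background on array 1. Dusp28, with the same limit in wild type on array 1, was at 0.96 and -0.07. Dusp12 was at 0.20 and -0.58, and the RNA phosphatase gene Dusp11 at 0.21 and 0.18 by its brightest probe. A second Dusp11 probe, well above background in all 4 channels, gave 0.80 and 0.43, and another, not above it in wild type on array 1, gave 2.40 and -0.27. Dusp22, which encodes JKAP, an inhibitor of Lck, was not well above background in any channel with either probe.

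Among the non-receptor enzymes, 4 of 8 measured genes had the same sign on both arrays and 4 did not. The inhibitors of antigen receptor and cytokine signalling, Ptpn22, Ptpn2 and Ptpn6, were all above 0 on array 1 and below 0 on array 2. Ptpn22, whose product PEP dephosphorylates Lck and ZAP-70, had signals of 15.03 in the knockout and 13.09 in wild type on array 1, and of 14.05 and 14.20 on array 2. On array 1 the wild type value was the lowest and the knockout value the highest of these signals, and the genotypes overlapped. Its ratios of 1.94 and -0.16 gave a mean of 0.89 ± 1.48 (adjusted p = 0.593, limma). The probe is on mm8 chromosome 3 from 104041230 to 104041289, plus strand.

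Ptpn2, encoding TC-PTP, which acts on JAK1, JAK3 and Src-family kinases, showed the same pattern at 1.07 and -0.36. Its signals were 14.26 and 13.19 on array 1 and 13.85 and 14.21 on array 2, knockout first, so the genotypes overlapped. Ptpn6, encoding SHP-1, the phosphatase recruited by inhibitory receptors, was at 0.36 and -0.14 (mean 0.11 ± 0.35, 95% interval -0.86 to 1.08). A second Ptpn6 probe, above background on array 2 only, gave -0.37 there.

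Ptpn11, encoding SHP-2, a positive regulator of the Ras and ERK pathway, stayed near 0 with its better detected probes. The brightest gave 0.29 and 0.06 (mean 0.17 ± 0.16), and a second, well above background in all 4 channels, gave 0.02 and 0.09. Another, above background in the knockout channel of array 1 alone, gave 1.60 there and -0.01 on array 2. Ptpn1, encoding PTP1B, a phosphatase of insulin and JAK2 signalling, was below 0 on both arrays with both of its probes, at -0.72 and -0.02 with the brightest and at -0.66 and -0.15 with the other.

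Ptpn7, encoding the haematopoietic phosphatase HePTP, which binds and dephosphorylates ERK and p38, was the one named non-receptor gene with its larger ratio on array 2. Its signals were 12.52 in the knockout and 12.39 in wild type on array 1, and 13.24 and 12.28 on array 2. Both knockout values exceeded both wild type values. The mean ratio was 0.54 ± 0.59 (adjusted p = 0.866, limma), from a probe on mm8 chromosome 1 at 136960940 to 136960999, plus strand. Ptpn23, an endosomal sorting factor also known as HD-PTP, was at -0.77 and -0.12, and Ptpn18 at -0.75 and 0.39. Ptpn12, which encodes PTP-PEST, a regulator of cytoskeletal adaptors, was well above background in the knockout channel of array 1 alone with both probes, whose annotated positions overlap, and these gave 1.12 and 0.16 on that array.

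Of the receptor enzymes, Ptprc is the one that defines leukocytes. By its brightest probe, on mm8 chromosome 1 from 139879923 to 139879982, minus strand, CD45 had signals of 15.65 in the knockout and 14.03 in wild type on array 1, and of 15.60 and 15.77 on array 2. As for Ptpn22, the wild type value of array 1 was the lowest and the genotypes overlapped. The ratios were 1.62 and -0.18, with a mean of 0.72 ± 1.27 (adjusted p = 0.744, limma). The 4 Ptprc probes spread widely on array 1, at 1.62, -0.04, 2.53 and 0.95 from the brightest to the dimmest, and all were below 0 on array 2, between -0.45 and -0.18. The second of these, well above background in all 4 channels, thus gave no excess on the array where the first gave its largest.

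Ptpre, which encodes a phosphatase closely related to Ptpra and acting on Src-family kinases, was above 0 on both arrays with both probes. The brighter gave 0.90 and 0.48 (mean 0.69 ± 0.30, adjusted p = 0.774, limma) and the other 0.26 and 0.30. Its signals, knockout first, were 12.51 and 11.61 on array 1 and 12.95 and 12.47 on array 2, without overlap of the genotypes. Ptprs, the receptor PTP-sigma, was at 0.84 and 0.29, Ptpra at 0.07 and 0.34, and Ptprv at -0.57 and -0.28, the last with its knockout channel not well above background on array 2. The signals of the genotypes overlapped for Ptprs and Ptpra and not for Ptprv. Ptprf, which encodes LAR, was at -0.23 and 0.14 by its brightest probe. Another Ptprf probe, above background in the knockout channel of array 1 alone, gave 1.56 and 0.63. The remaining one, not above background in any channel, gave -0.26 and -0.41. Ptprj, encoding CD148, a regulator of Src-family kinases in immune cells, was well above background in the knockout channel of array 1 alone, by 1 of its 2 probes, at ratios of 1.70 and 0.56.

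Ptprz1, a receptor phosphatase of the nervous system, was singled out after its values were seen. The probe that stood for it had knockout and wild type signals of 16.83 and 18.73 on array 1 and of 18.56 and 17.23 on array 2. By mean signal this made Ptprz1 the brightest of all measured genes. Saturated spots were not filtered out, so the ratios of so bright a probe need not reflect the level of the gene. The ratios were -1.90 and 1.34, opposite on the arrays and the only value past 2-fold on array 2 among the phosphatases. Its other 3 probes were not well above background, apart from 1 in the wild type channel of array 1. That probe, starting 2867 bases away, gave -1.03 and 0.36, the same signs as the brightest on a smaller scale. The nearest of the 3, starting 322 bases away on mm8 chromosome 6, gave 0.16 and 0.28. The farthest, starting 50477 bases away, gave -0.58 and -0.42. Without Ptprz1 the median of the receptor class was 0.46 on array 1 and 0.21 on array 2, in place of 0.07 and 0.29.

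**Figure D4:**
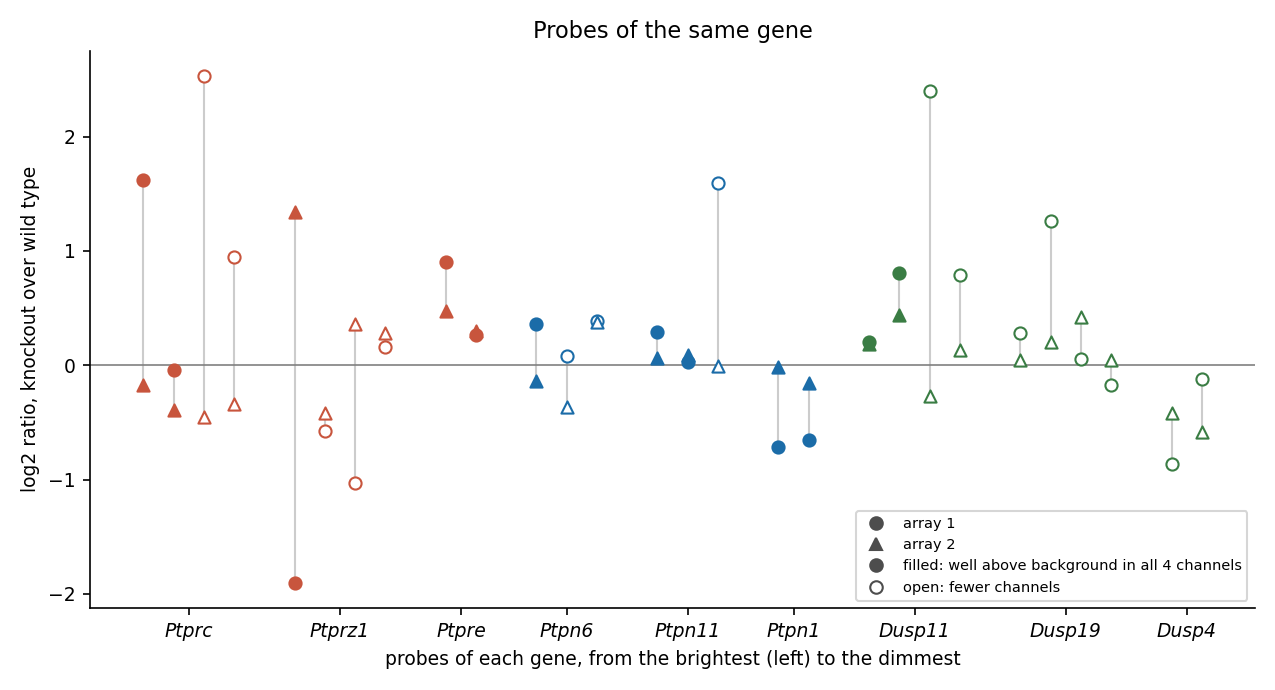
Log2 ratio of each probe of 9 genes on array 1 (circles) and array 2 (triangles), the probes of a gene ordered from the brightest to the dimmest; filled symbols are well above background in all 4 channels. Probes of Ptprc, Ptpn11 and Dusp11 spread far more on array 1 than on array 2, and the brightest Ptprz1 probe separates the arrays more widely than the other 3.

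Detection is described by class, and a difference between the classes was not tested. Of the 61 genes, 27 had no probe well above background in any channel, and 9 had one in some channel without meeting the condition for a measurement, which asks for the same genotype on both arrays. The measured share was 47.1% for non-receptor (8 of 17), 33.3% for receptor (7 of 21) and 43.5% for dual-specificity genes (10 of 23). Over the whole array it was 33.6%. The unmeasured non-receptor genes were Ptpn3, Ptpn4, Ptpn5, Ptpn9, Ptpn12, Ptpn13, Ptpn14, Ptpn20 and Ptpn21. The unmeasured receptor genes were Ptprb, Ptprd, Ptprg, Ptprh, Ptprj, Ptprk, Ptprm, Ptprn, Ptprn2, Ptpro, Ptprq, Ptprr, Ptprt and Ptpru, several of them known from neurons, epithelium or endothelium. The unmeasured dual-specificity genes were Dusp3, Dusp8, Dusp9, Dusp13, Dusp14, Dusp15, Dusp16, Dusp18, Dusp21, Dusp22, Dusp23, Dusp26 and Dusp27.

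Of the 123 phosphatase probes, 38.2% stood well above background with knockout RNA on array 1, against 25.2% in wild type on that array and 24.4% and 28.5% in knockout and wild type on array 2. Over all gene probes these shares were 39.6%, 24.6%, 24.9% and 30.7%. The excess on 1 channel was thus shared with the rest of the array. Non-receptor probes seen in that channel alone numbered 6 of 34, against 8.02% of all gene probes, and among them were both Ptpn12 probes and single probes of Ptpn9, Ptpn11, Ptpn13 and Ptpn14.

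**Figure D5:**
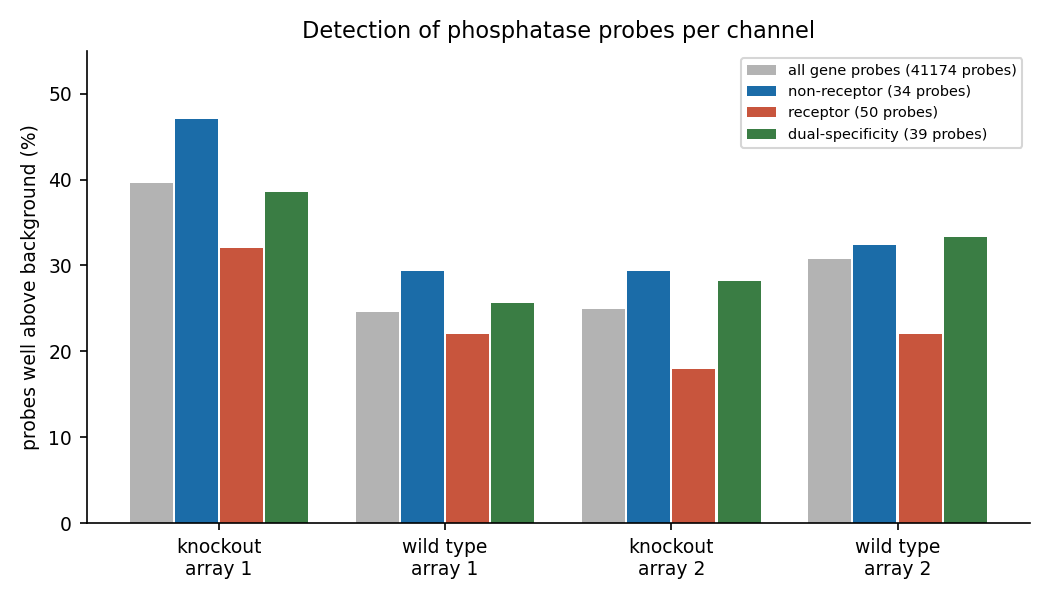
Share of probes well above background in each of the 4 channels, for all gene probes and for the 3 phosphatase classes, in percent. The knockout channel of array 1 is the highest for every class, and receptor phosphatase probes are the least often detected class in every channel.

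The partners of these enzymes were examined in 4 lists. Among MAP kinases and their upstream kinases, 23 of 32 were measured and none passed the test in either direction; the median was 0.33 on array 1 and -0.06 on array 2. Of the genes with a shared sign, Map2k4, a kinase of JNK and p38, was at 1.39 and 0.48, Map3k2 at 2.19 and 0.45, Mapk13 at -0.72 and -0.42 and Mapk7, which encodes ERK5, at -0.88 and -0.41. Wild type was not well above background on array 1 for Map2k4 and Map3k2, nor was the knockout on array 2 for Mapk13. Among tyrosine kinases of lymphocytes, 19 of 27 were measured and none passed, with medians of 0.12 and 0.08. Fes was at 1.11 and 1.92 and Jak1, a kinase of cytokine receptors, at 0.82 and 0.62. Lyn and Fgr, Src-family kinases of B or myeloid cells, were not well above background in wild type and were at least 1.76-fold and at least 1.75-fold higher in the knockout, without passing (adjusted p = 0.512 and 0.642, limma). Lck, the main T cell substrate of CD45, was at 0.19 and 0.01.

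Of 30 inhibitory receptors and adaptors that recruit SHP phosphatases, 15 were measured, 2 rose and none fell, with medians of -0.07 and 0.05. The 2 were Klra7, a Ly49 receptor of natural killer (NK) cells, at 1.93 and 2.37 (adjusted p = 0.00312, limma), and Sirpa, a receptor of myeloid cells, which was at least 1.82-fold higher because wild type was not well above background (adjusted p = 0.0171, limma). Pirb, a paired immunoglobulin-like receptor, was at 2.20 and 0.89 without passing, and the adaptor gene Sit1 at -0.74 and -0.85. For Klra7 and Pirb wild type was not well above background on array 1. Of 45 related phosphatases outside the naming rule, 24 were measured, 2 rose and none fell, with medians of 0.53 and 0.14. Ptp4a2, a small prenylated phosphatase, passed through array 1 alone, at 3.28 and 0.14 (adjusted p = 0.0419, limma). Tns1, a tensin with a phosphatase-like domain, was at -0.72 and -0.77, and Ptp4a3, a relative of Ptp4a2, at -0.69 and -0.59.

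Markers of other cell types moved on the same arrays. Of 17 myeloid and dendritic markers 10 were measured, with mean log2 ratios of 2.14 on array 1 and 1.58 on array 2. Among them 5 rose (Adgre1, Csf1r, C1qc, Itgax and Lyz2), the last through array 1 alone, at 4.03 and -0.38. On both arrays 8 of the 10 lay above 0, while Cd14 was below 0 on both, at -0.40 and -0.08. Itgam, Cd68, Spi1, Csf3r, Siglech, Marco and Cd163 had no measured level. Of 8 NK markers 7 were measured, with means of 1.41 and 2.55 (medians 1.26 and 1.82), and 3 rose (Fcer1g, Klrb1c and Tyrobp). Genes shared by NK and myeloid cells were not separated in these lists. Klrk1, Eomes and Gzma were above 0 on both arrays without passing, and Ncr1 changed sign, at -0.20 and 0.86. B cell markers gave 4 measured of 10 with none past the test (means 0.57 and 0.07), and Cd79a and Pax5 were among those without a measured level. All 12 T cell markers were measured with none past the test (means 0.58 and -0.004, medians 0.56 and 0.39), Cd8a and Cd8b1 among them. Above 0 on both arrays were 7 of the 12, and 3 were below 0 on both. Cd5 and Cd6 were the lowest on array 2, at -1.80 and -1.79. Several of the measured phosphatases are expressed in myeloid cells too. In bulk RNA a different share of cells and a different level per cell cannot be told apart. The part of these markers in the phosphatase values was not tested.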

How the data were processed

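The submitters' processing notes name Agilent Feature Extraction 9.5.3.1 for reading the scans. In the deposited files of each array are linear intensity values per spot and channel, not normalised, and a log10 ratio of red over green after the scanner software's own correction, per the file headers. The deposited value table of log10 ratios matched the latter to within 0.005 on both arrays.

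From the intensities, background was corrected with normexp (offset 50) and log2 ratios were normalised by loess within arrays (limma 3.58.1, R 4.3.3), with control and outlier spots at weight 0 and then removed. Spots of a probe were averaged. A gene was measured if 1 genotype was well above background on both arrays with the same probe, the brightest such probe being used. Of 41174 probes, 24375 took their gene name from an accession in RefSeq's GRCm38.p6 table, 6301 from a current symbol and 2426 from an older one; 8072 kept the file's name. Mean ratios were tested two-sided with lmFit and eBayes, adjusted by Benjamini-Hochberg over 9273 genes, at 0.05. The prior degrees of freedom were infinite, hence the shared standard error. Signals per genotype are log2 values after loess and Aquantile scaling. With 2 arrays the number of arrays limits the precision; both lay on the same slide, so no slide block could be fitted.

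Members and gene lists were chosen with earlier results of these data known. Named were passing members, up to 6 per class with the same sign on both arrays by the smaller ratio, members with a known part in T cell receptor, cytokine or MAP kinase signalling, and members seen in 1 genotype only; of each list, up to 4 genes. Lck, Ptprz1 and the remaining members were named outside that rule after their values were seen. Some genes of the lists are not reported here. Alternatives changed the background correction, normalisation, filter, probe choice, variance model and arrays used.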

Additional observations from a re-analysis of the deposited data

How the results depend on the processing

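No phosphatase passed under any of the 9 other settings with a test, while those at an unadjusted p under 0.05 numbered from 0 (normexp offset 16) to 8 (median centring). The count over all genes, 138 (115 higher, 23 lower), was less steady: it was 35 without background correction, 64 with median centring (63 higher, 1 lower), 0 with the scanner software's log ratio, with arrays scaled to the same spread and with no filter, 39 with both channels above background on both arrays, and 263 with a trended, robust variance. At an unadjusted p under 0.05, the settings with a count of 0 reached 574, 910 and 2480 genes in limma. The cause was not tested.

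Median centring raised the typical gene by 0.65; the class medians became 1.06 (non-receptor), 1.11 (receptor) and 0.95 (dual-specificity), and Ptpn1 turned from below 0 to 0.65. Dusp10 went from -0.99 to -0.15 there. With the scanner software's log ratio, Dusp4 was at -2.35 in place of -0.64 and Dusp19 at 2.10 in place of 0.73. The dual-specificity median of 0.39 was 0.24 without background correction and -0.02 with no filter, when dim members enter. The receptor median was 0.38 both with both channels above background and, as chosen after seeing the data, without Ptprz1. Leaving out 1 array, which leaves a value with no test, gave medians from -0.0681 to 0.21 (non-receptor), from 0.07 to 0.29 (receptor) and from 0.06 to 0.72 (dual-specificity). Without array 1, Ptpn22, Ptpn2, Ptpn6 and Ptprc were below 0. The other 17 named genes kept their direction under median centring, and all 18 did under the other settings on both arrays, except that 14 of them were measured with both channels above background. The ratios already pair the knockout and wild type samples of an array. No paired analysis was possible beyond that, because the design has 1 group of ratios, which leaves no replicate block to fit. Signals near background limit Dusp4, Dusp19, Dusp28, Ptpn23 and Ptprv.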

Other observations

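A set of 5 clone-named probes fell outside the naming rule although an older symbol ties them to phosphatase genes. A clone probe tied to Dusp15 was well above background in all 4 channels, with log2 ratios of -0.86 and -0.14, although the array's own Dusp15 probe was not above background in any channel. A second probe of that clone, not above background, gave -0.59 and -0.41. A clone probe tied to Dusp8 was above background in 2 of 4 channels, at -0.72 and -0.38. Those tied to Ptprb and Ptprg were not above background in any channel.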
